A study of Mus musculus with 2 samples.

Results

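The synaptic vesicle release machinery was taken as the genes whose symbols name the synaptotagmins, syntaxins, syntaxin-binding proteins, VAMPs, complexins, synapsins, RIM and Munc13 proteins, SV2 proteins, Rab3 GTPases, synaptogyrins and the SNAP and AP180 genes Snap23, Snap25, Snap29, Snap47 and Snap91. The rule used gene names only, and it found 77 of the 31252 gene rows. Their levels were compared in ventral midbrain of 2-month-old mice (incipient congenic C57BL/6) between 1 library labelled Ctrl (number 77) and 1 labelled OE (number 78). Both genotypes carried Slc6a3-Cre, in which the dopamine transporter locus drives Cre in dopaminergic (DA) neurons, and OE mice carried in addition CAG-S-COUP-TFII, an allele that makes the orphan nuclear receptor COUP-TFII where Cre has acted. The crosses of the study also brought a Tfam flox allele and a tdTomato reporter into its litters, which the labels of these 2 libraries do not mention. The allele acts in DA neurons alone, whereas the RNA came from the whole dissected tissue with its other neurons and glia. Counts estimated by RSEM summed to 16984336 (Ctrl label) and 21326632 (OE label). How many mice a library holds is not given in the sources used here. With 1 library per group, no difference has a replicate check, and every interval below is a 95% interval that covers counting error only. Where a pair of values is given, the first is that under the Ctrl label and the second that under the OE label.

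Transmitter leaves a nerve terminal when a synaptic vesicle fuses with the plasma membrane. A VAMP protein on the vesicle zips together with syntaxin and SNAP-25 on the plasma membrane, with Munc13 and RIM preparing the vesicle at the active zone. Complexin holds the assembled complex, and a synaptotagmin on the vesicle triggers fusion when calcium enters. Synapsins keep a reserve of vesicles near the site, Rab3 GTPases bring vesicles to RIM, and SV2 proteins and synaptogyrins are membrane proteins of the vesicle itself. In DA neurons the same core apparatus releases dopamine, both from axons in the striatum and from the cell bodies and dendrites in the midbrain.

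The library labels were set beside Nr2f2, the gene of COUP-TFII. Nr2f2 had 637 counts under the Ctrl label and 377 under the OE label, a log2 fold change of -1.07. This direction goes against the labels. The row counts RNA of all cells in the tissue, whereas the allele acts in DA neurons alone. The paper measured the overexpression in isolated DA neurons, so this row cannot settle whether the labels are right. All directions below are those of the labels as given. Exchanging them would turn every sign. The labels name DA neurons as the cell type, but markers of other cells were more abundant: 12 oligodendrocyte markers summed to 20204 and 16897 counts scaled to 1000000 (CPM) and 11 astrocyte markers to 4682 and 4399 CPM in the libraries labelled Ctrl and OE, against 1531 and 3637 CPM for 17 DA neuron markers. All 17 DA neuron markers and 1 of 15 thalamus markers lay above log2 0.2 on the OE side, and 13 thalamus markers were lower. All 15 thalamus markers summed to 1420 and 920 CPM. None of the DA neuron markers was at 0, and the thalamus marker Gbx2 was at 0 in the library labelled OE. For OE mice the paper reports less striatal dopamine and, at a later age, a mild loss of DA neurons. The direction of the DA neuron markers is opposite to that as well. Those measures are not RNA levels of this tissue, so the markers do not settle the labels either. Pan-neuronal markers, none of them a release gene, summed to 5246 and 6043 CPM with a median log2 fold change of 0.19. These 12 markers differed among themselves, from -0.21 for Rbfox3 to 0.54 for Nefl, with quartiles of 0.03 and 0.40. Of them 9 were above 0 and 3 below. Whether these differences in tissue make-up have a part in the values below was not tested. In whole tissue, fewer cells of a type and less RNA per cell cannot be told apart.

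Of the 77 release genes, 71 reached the minimum mean of 10 counts. As a group they lay close to no difference. The log2 fold change is that of the OE label over the Ctrl label throughout, and its median was 0.02, beside 0.0047 over all 15246 genes tested, and 37 of the 71 genes were above 0 and 34 below. Past log2 0.2, the threshold of the study's methods, 14 genes or 19.7% were higher under the OE label, where 17.9% of all tested genes were. Lower by as much were 8 genes or 11.3%, against 16.6% of all. Both shares were near those of all genes. When the interval also had to exclude 0, 10 release genes (14.1%) were higher and 5 (7.04%) lower, against 9.91% and 9.16% of all tested genes. These 15 genes are Sv2c, Syt17, Rab3c, Cplx1, Stx3, Stxbp4, Syt1, Cplx2, Sv2b and Syngr3 on the higher side and Syt9, Syn2, Stx1a, Vamp3 and Stxbp5l on the lower side. In another 29 genes the interval lay inside log2 0.2 on both sides, so that a difference past the threshold lay outside the counting error. The other 27 genes could be placed in neither class. The values were also set against the pan-neuronal markers, by taking their median of 0.19 from every value. The median of the release genes was then -0.16 and that of all genes -0.18. Past log2 0.2, 5 release genes were higher and 32 lower, against 8.03% and 45.7% of all tested genes. Of the 10, Cplx1, Rab3c, Sv2c and Syt17 were then still past the threshold, as were all 5 on the lower side. Without this centring, 3 release genes, or 4.23%, were past log2 0.5, against 10.6% of all genes tested.

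**Figure D1:**
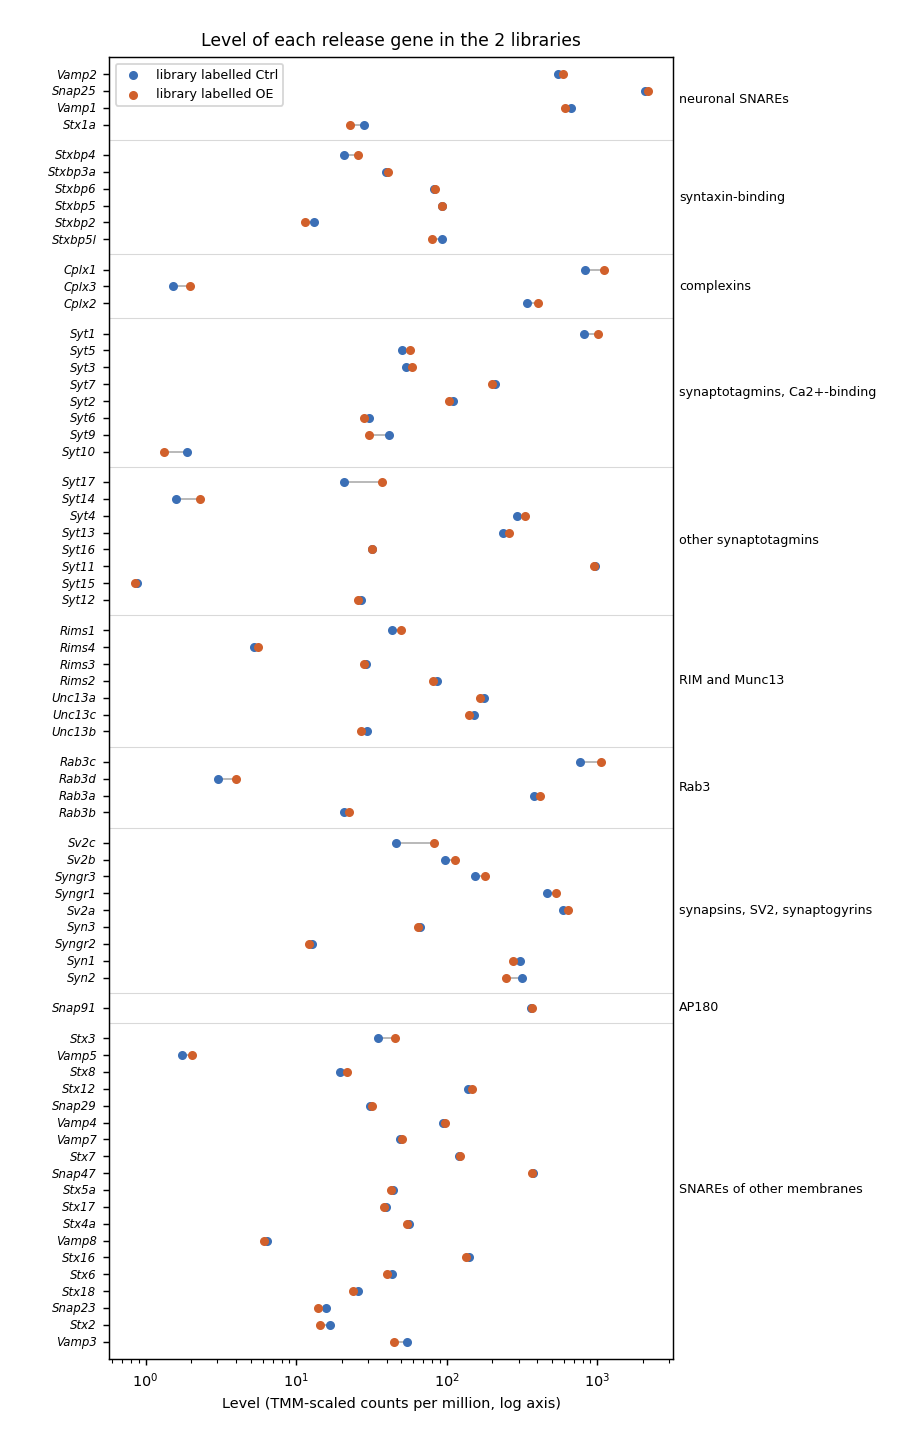
Level of each of 69 tested release genes in the library labelled Ctrl (blue) and the library labelled OE (orange), in TMM-scaled CPM on a log axis, grouped by role. The 2 points of most genes nearly coincide, from Syt15 at 0.878 and 0.849 CPM to Snap25 at 2081 and 2162 CPM, and the widest gaps belong to Sv2c, Syt17 and Syt14.

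The promoters of 4 of these genes are shown, each with the highest or lowest value of its role group. The 4 include the matches, among those of the 15 genes with a RefSeq window, to the DNA element of the overexpressed receptor. Cplx1, Rab3c, Stx3, Stxbp4 and Stx1a also hold such an outer value, and their windows, not shown, held no match. The display is thus not a measure of how often the element occurs. Syt17, Syngr3 and Vamp3 had no window and could not be searched. COUP-TFII belongs to the nuclear receptors that bind copies of the 6 letters AGGTCA. The stretches are the 250 bases before a start site in RefSeq on GRCm38.p6, the assembly that mm10 stands for, and capitals mark AGGTCA on either strand. Sv2c, with the largest difference of a release gene that has a window there, lies upstream of its gene at chr13:96132578-96132827 on the minus strand. Syn2, lower in the library labelled OE, was read at chr6:115134652-115134901 on the plus strand, where exons of Gm17733 cover 184 of the bases. Syt1, higher, is at chr10:109009112-109009361 on the minus strand, the window of its 2 that holds a match, inside the gene but in none of its annotated exons. Stxbp5l, lower, is at chr16:37384959-37385208 on the minus strand, with 4 bases in an annotated exon of the gene.
Sv2c: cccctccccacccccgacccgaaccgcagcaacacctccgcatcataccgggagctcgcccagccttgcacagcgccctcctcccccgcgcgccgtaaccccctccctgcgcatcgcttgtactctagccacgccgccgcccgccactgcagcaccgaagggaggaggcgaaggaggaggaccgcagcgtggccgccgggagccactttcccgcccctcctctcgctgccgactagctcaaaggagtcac
Syn2: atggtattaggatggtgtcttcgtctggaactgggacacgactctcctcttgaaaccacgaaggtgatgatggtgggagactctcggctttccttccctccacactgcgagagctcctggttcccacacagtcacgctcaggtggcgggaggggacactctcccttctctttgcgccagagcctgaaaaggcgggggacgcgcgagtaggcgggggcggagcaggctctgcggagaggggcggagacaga
Syt1: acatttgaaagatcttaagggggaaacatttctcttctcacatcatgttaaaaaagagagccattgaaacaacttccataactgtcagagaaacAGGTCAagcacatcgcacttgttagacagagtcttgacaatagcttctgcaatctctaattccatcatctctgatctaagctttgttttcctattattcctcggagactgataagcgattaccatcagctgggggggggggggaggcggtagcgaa
Stxbp5l: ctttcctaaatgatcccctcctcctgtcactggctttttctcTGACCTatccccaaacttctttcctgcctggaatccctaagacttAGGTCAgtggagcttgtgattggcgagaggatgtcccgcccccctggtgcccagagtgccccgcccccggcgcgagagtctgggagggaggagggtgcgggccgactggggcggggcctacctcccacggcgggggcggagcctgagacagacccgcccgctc

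The element AGGTCA was thus found in the Syt1 stretch, 156 bases before the start site, and at 208 and 163 bases before that of Stxbp5l, and not in those of Sv2c and Syn2. Syt1 and Stxbp5l went in opposite directions. Over the whole windows, which run to 50 bases past the start site, 12 of 74 windows of release genes (16.2%) held AGGTCA on either strand, and 16.3% of all 32851 windows did. A pair of copies with 1 base between them, the spacing typical for COUP-TF receptors, was in 0 of the 74 windows and 0.0396% of all. The cAMP response element TGACGTCA, at which neuronal activity is known to act on genes, was in 2 windows, those of Syn1 and Stxbp3a (2.70%), against 1.79% of all windows. RefSeq windows matched 58 of the 77 genes. A match of letters is a description and shows no binding.

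The SNARE proteins of the neuronal fusion complex were the most abundant group and among the least different. Snap25, which gives the complex 2 of its helices, had 2081 CPM in the library labelled Ctrl against 2162 CPM in that labelled OE, which is a log2 fold change of 0.06 (interval 0.04 to 0.08). Per kilobase of its longest coding transcript this is 983 and 1022 CPM, the highest level per length of any release gene in both libraries. Vamp2, the main vesicle SNARE of the forebrain, had 550 and 591 CPM, a fold change of 0.10 (interval 0.06 to 0.14). Vamp1, its paralog in brainstem, spinal cord and motor terminals, had 664 and 614 CPM, a fold change of -0.11 (interval -0.15 to -0.08). The 2 vesicle SNAREs lay on opposite sides of 0, each by less than log2 0.2, but both below it, at -0.08 for Vamp2 and -0.30 for Vamp1, after centring on the pan-neuronal markers. Stx1a, a syntaxin of the plasma membrane, was the 1 core SNARE of 5 past the threshold, on the lower side. Of all tested genes 16.6% were lower by as much. The 485 and 482 counts of Stx1a, or 28.4 and 22.7 CPM, gave -0.32 (interval -0.51 to -0.14).

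Among the syntaxin-binding proteins, 7 of 8 were tested. Past the threshold and apart from 0, 1 was higher and 1 lower (14.3% each), against 9.91% and 9.16% of all tested genes. Stxbp5l, a tomosyn that competes with VAMP for syntaxin, was lower at 93.2 and 80.1 CPM (-0.22, interval -0.32 to -0.12), while the tomosyn Stxbp5 was level at 93.3 and 92.8 CPM (-0.0081, interval -0.10 to 0.09). Stxbp4, which binds syntaxin 4, was higher at 20.7 and 25.7 CPM (0.31, interval 0.12 to 0.51). Stxbp2, which serves secretion in blood and epithelial cells, had 225 and 243 counts and a value of -0.20 whose interval from -0.47 to 0.07 held 0. Stxbp3a and Stxbp6 lay within log2 0.03 of no difference.

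All 3 tested complexins had values above log2 0.2, as 17.9% of all tested genes did, and 2 of them had intervals apart from 0. After centring on the pan-neuronal markers Cplx1 alone was past the threshold, with 0.22, and Cplx2 and Cplx3 had 0.06 and 0.19. Cplx1, found mainly in subcortical and inhibitory neurons, had 832 CPM in the library labelled Ctrl against 1100 CPM in that labelled OE, which is a log2 fold change of 0.40 (interval 0.37 to 0.43). Cplx2 had 341 and 405 CPM, a fold change of 0.25 (interval 0.20 to 0.30). Cplx3, known from the retina, had only 26 and 42 counts, and its value of 0.37 came with an interval from -0.36 to 1.14. With Cplx1 and Cplx2 above the threshold, the summed level of the group was 1174 CPM in the library labelled Ctrl against 1507 CPM in that labelled OE.

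**Figure D2:**
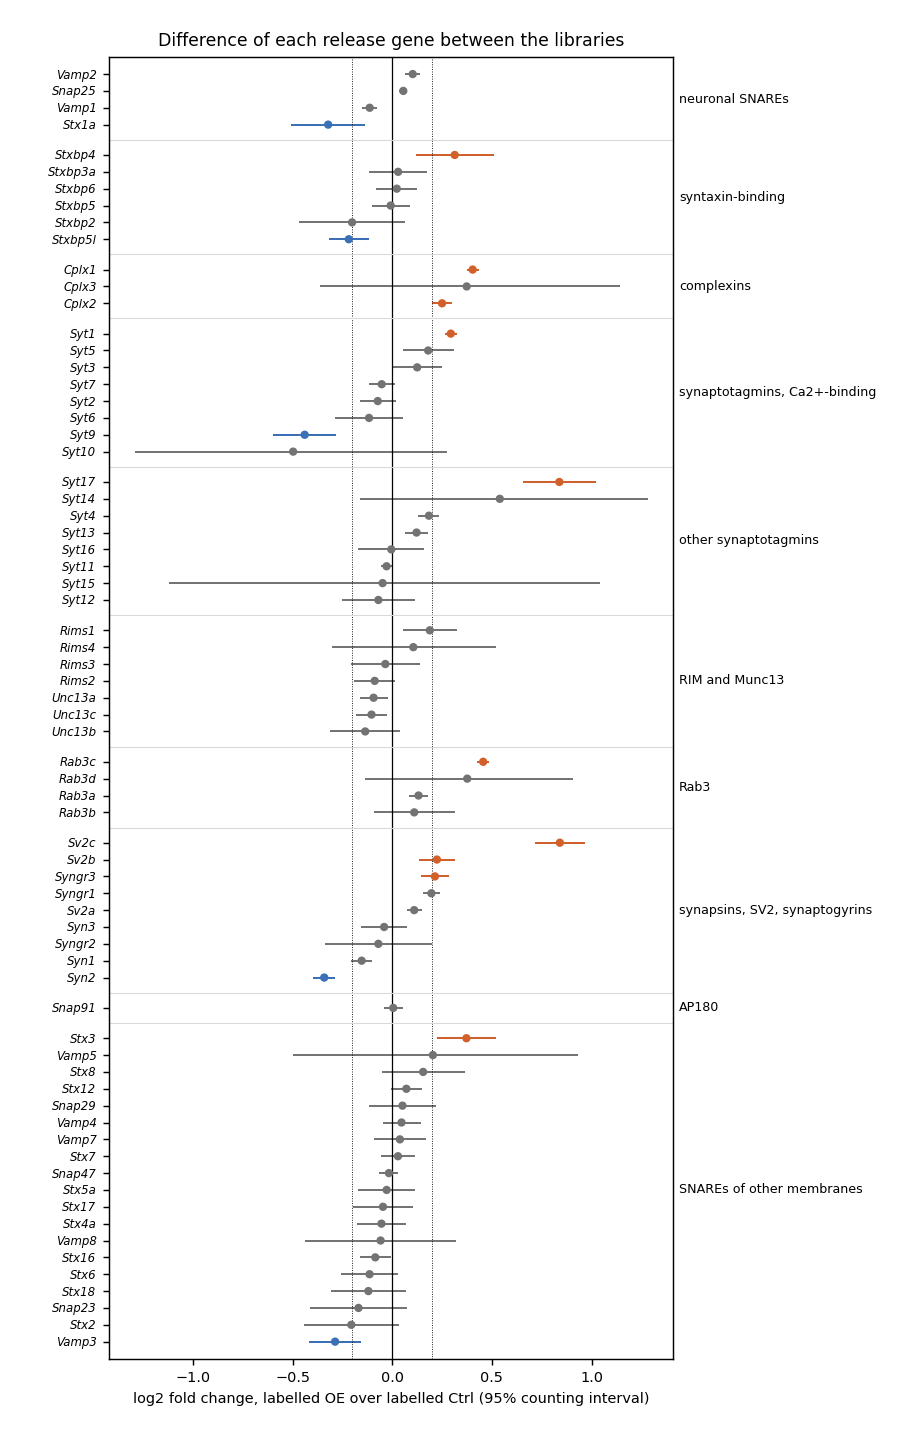
Log2 fold change, OE label over Ctrl label, of 69 tested release genes with 95% counting intervals, grouped by role; orange and blue mark genes past log2 0.2 (dotted lines) whose interval excludes 0, on the higher and the lower side. The 10 orange genes include both abundant complexins, Rab3c, Sv2c and Syt17, and the 5 blue genes come from 5 different groups.

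Calcium sensors showed differences in both directions. Of the 8 synaptotagmins whose C2 domains bind calcium, Syt1, the sensor for fast release in most forebrain neurons, was higher, with 821 and 1007 CPM (0.29, interval 0.26 to 0.32). Syt2, the fast sensor of brainstem and other rapidly firing neurons, had 110 and 104 CPM (-0.07, interval -0.16 to 0.02), a difference not separated from 0. Syt9, the third of the fast sensors, was lower, with 41.1 and 30.3 CPM (-0.44, interval -0.60 to -0.28). Syt7, which serves slow and asynchronous release, had 209 and 201 CPM (-0.05, interval -0.12 to 0.01). Syt5 and Syt3 had values of 0.18 (interval 0.05 to 0.31) and 0.12 (interval 0.0007 to 0.25), and Syt6 of -0.12 (interval -0.29 to 0.05). Syt10, with 32 and 28 counts, had the lowest value of all release genes, -0.50, and an interval from -1.29 to 0.27.

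Synaptotagmins that lack calcium-dependent membrane binding included the gene with the joint largest difference. Syt17, a synaptotagmin-like protein of the Golgi and endosomes, had 356 counts in the library labelled Ctrl against 791 in that labelled OE, or 20.8 and 37.3 CPM, a log2 fold change of 0.84 (interval 0.66 to 1.02). It lay at percentile 97.7 of all tested genes. Syt11, the most abundant of these by count and a known substrate of parkin, was level at 967 and 948 CPM (-0.03, interval -0.06 to 0.0011). Syt4, found on dense-core vesicles, had 293 and 333 CPM (0.18, interval 0.13 to 0.24) and Syt13 had 237 and 257 CPM (0.12, interval 0.06 to 0.18), both apart from 0 but under the threshold. Syt14, with 27 and 49 counts, gave 0.54 (interval -0.16 to 1.28). Syt12, Syt15 and Syt16 lay between -0.07 and -0.0050, each with an interval that held 0.

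At the active zone, no gene of the RIM and Munc13 families passed log2 0.2 in either direction under the main scaling. After centring on the pan-neuronal markers, Rims2 (-0.27), Rims3 (-0.22), Unc13a (-0.28), Unc13b (-0.32) and Unc13c (-0.29) were past it on the lower side. So were 45.7% of all tested genes under that centring. Rims1, the scaffold that joins Rab3 and calcium channels, had 43.4 and 49.4 CPM (0.19, interval 0.05 to 0.33), the highest of the group. Unc13b was the lowest, with 29.6 and 26.9 CPM (-0.14, interval -0.31 to 0.04). Unc13a, the main priming factor of central synapses, had 178 and 166 CPM (-0.09, interval -0.16 to -0.02). Unc13c, abundant in cerebellum, had 152 and 141 CPM (-0.10, interval -0.18 to -0.03). Rims2, Rims3 and Rims4 had intervals that held 0, with values of -0.09, -0.04 and 0.11.

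All 4 Rab3 genes had values above 0 (Rab3c and Rab3d alone after centring on the pan-neuronal markers), and 1 of them passed the threshold apart from 0. Rab3c had 772 CPM in the library labelled Ctrl against 1058 CPM in that labelled OE, which is a log2 fold change of 0.46 (interval 0.42 to 0.49). It was the largest difference among the 9 release genes with a mean above 10000 counts. Rab3a, the isoform best known from synaptic vesicles, had 379 and 415 CPM (0.13, interval 0.09 to 0.18). Rab3b, an isoform known from DA neurons and secretory cells, had 355 and 476 counts and a value of 0.11 (interval -0.09 to 0.31). Rab3d, an isoform of exocrine glands, had 52 and 84 counts and a value of 0.38 (interval -0.14 to 0.91).

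Of the 9 tested genes for the vesicle pool and the vesicle membrane, 3 (33.3%) were higher and 1 (11.1%) lower past the threshold. All 4 had intervals apart from 0, against 9.91% and 9.16% of all tested genes. Sv2c, the SV2 protein enriched in basal ganglia and DA neurons, had 782 counts in the library labelled Ctrl against 1740 in that labelled OE, or 45.8 and 82.0 CPM. The log2 fold change of Sv2c, 0.84 (interval 0.72 to 0.96), equalled that of Syt17 and stood at percentile 97.8 of all tested genes. Sv2b had 96.6 and 113 CPM (0.22, interval 0.13 to 0.32) and Sv2a, the ubiquitous form and the target of the drug levetiracetam, had 590 and 636 CPM (0.11, interval 0.07 to 0.15). The neuronal synaptogyrins Syngr3, with 155 and 180 CPM (0.21, interval 0.14 to 0.29), and Syngr1, with 464 and 532 CPM (0.196, interval 0.15 to 0.24), fell just above and just below the threshold. Syn2 had 316 and 249 CPM, a fold change of -0.34 (interval -0.40 to -0.29). Syn1 had 307 and 276 CPM (-0.15, interval -0.21 to -0.10), and Syn3 66.6 and 64.7 CPM (-0.04, interval -0.16 to 0.07). All 3 synapsins thus had values below 0, while the 3 SV2 genes had values above it, except for Sv2a once values were centred on the pan-neuronal markers. Syngr2, a form of non-neuronal cells, had 218 and 258 counts and a value of -0.07 (interval -0.34 to 0.20). Snap91, which encodes the clathrin adaptor AP180 that retrieves VAMP after fusion, was level at 365 and 367 CPM (0.0048, interval -0.04 to 0.05).

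SNAREs that serve other membranes were counted by the rule as well, and 19 of 21 were tested. They had a median of -0.03, with 2 past the threshold and apart from 0. These were 1 higher and 1 lower (5.26% each), against 9.91% and 9.16% of all tested genes. Stx3, the syntaxin of apical membranes and ribbon synapses, was higher at 34.8 and 45.0 CPM (0.37, interval 0.22 to 0.52). Vamp3, the VAMP of recycling endosomes in most cell types, glia included, was lower at 54.6 and 44.7 CPM (-0.29, interval -0.42 to -0.16). The other 17 had values from -0.21 for Stx2 to 0.20 for Vamp5, whose counts were 30 and 43. Snap47, the most abundant of the group by count, had 373 and 368 CPM (-0.02, interval -0.06 to 0.03), and Snap23, the general counterpart of Snap25, had 15.7 and 14.0 CPM (-0.17, interval -0.41 to 0.07). Summed, the group had 1306 and 1297 CPM.

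The 6 genes under the minimum were Cplx4 with 1 count in each library, Stx11 with 2 and 4, Stxbp3b with 6.4 and 4.17, Syt8 with 0 and 1, and Stx19 and Syngr4 with 0 in both. A count of 0 allows up to 0.176 CPM (Ctrl label) or 0.141 CPM (OE label). No fold is given for them. RefSeq lists Stxbp3b as a pseudogene of Stxbp3, the gene of the row Stxbp3a, and both rows have counts that are not whole, so reads were shared between similar transcripts. Syt11 and Unc13a are the other 2 release genes with such counts.

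Ratios between paralogs do not depend on the scaling between libraries, and 13 pairs are given. Sv2c made up 7.21% (interval 6.73 to 7.71) of the Sv2a and Sv2c counts in the library labelled Ctrl against 11.4% (interval 10.9 to 11.9) in that labelled OE, a log2 change of the ratio of 0.73 (interval 0.60 to 0.86). Rab3c made up 67.1% and 71.8% of the Rab3a and Rab3c counts, a change of 0.32 (interval 0.27 to 0.38). For the fast calcium sensors, Syt2 had 11.8% of the Syt1 and Syt2 counts under the Ctrl label and 9.38% under the other, a change of -0.37 (interval -0.46 to -0.27). Vamp1 had 54.7% and 51.0% of the Vamp1 and Vamp2 counts (-0.22, interval -0.27 to -0.16). In both of these pairs the first gene had the smaller share in the library labelled OE. Other changes with intervals apart from 0 were those of Syn1 over Syn2 (0.19), Cplx1 over Cplx2 (0.15), Sv2b over Sv2a (0.11), Stxbp5l over Stxbp5 (-0.21) and Rims3 over Rims1 (-0.22, interval -0.44 to -0.0045). The ratios of Syngr3 to Syngr1, Unc13c to Unc13a, Rab3b to Rab3a and Snap23 to Snap25 had intervals that held 0.

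**Figure D3:**
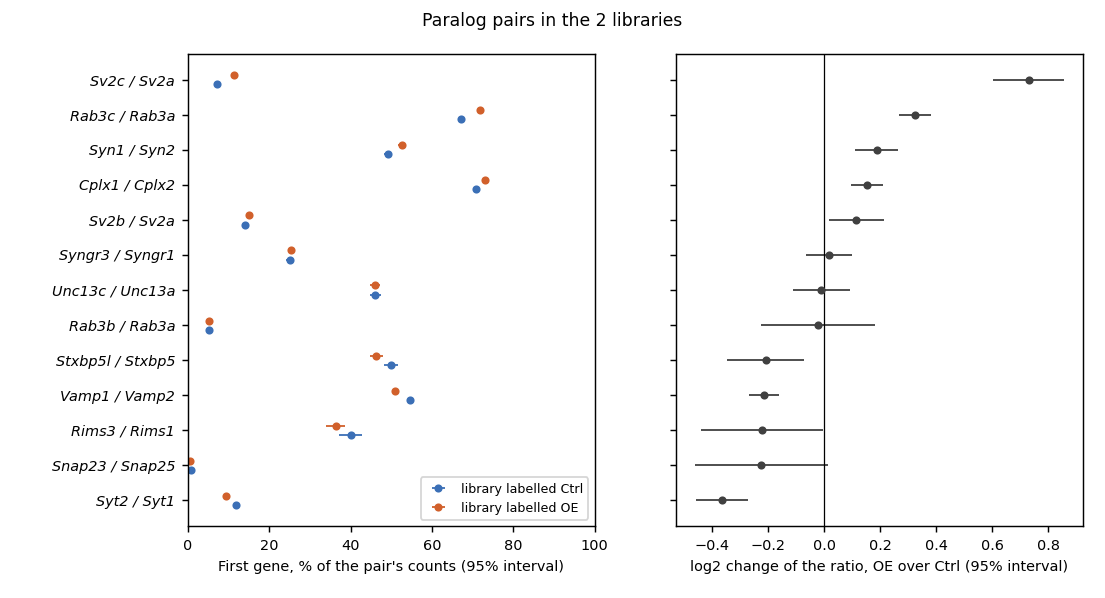
Left, share of the first gene in the counts of each of 13 paralog pairs in the library labelled Ctrl (blue) and the library labelled OE (orange), in percent with 95% Clopper-Pearson intervals; right, log2 change of the ratio between the libraries with 95% Wald intervals. Sv2c over Sv2a has the largest change, 0.73, and Syt2 over Syt1 the lowest, -0.37.

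Few genes carried the difference in the summed level. The 77 genes held 1.42% of all counts in the library labelled Ctrl against 1.51% in that labelled OE, or 14087 and 15163 CPM. Of the net difference of 1076 CPM, Rab3c, Cplx1 and Syt1 together held 740 CPM. The other 74 genes summed to 11662 and 11998 CPM. Chosen after their values were seen, these 3 genes are a description. The largest negative terms were Syn2, with -66.6 CPM, and Vamp1, with -50.2 CPM. Across the 71 tested genes, the log2 fold change varied little with the mean count (Pearson's r = 0.07, Spearman's rho = 0.17, with 2 libraries shared by all points). With the length of the longest coding transcript r was 0.16 and rho 0.09 over 70 genes, which also share those libraries.

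Other genes of the vesicle cycle that the rule does not name were counted from 6 lists. Of 67 genes, 15 or 22.4% lay above log2 0.2 and 6 or 8.96% below -0.2, where 17.9% and 16.6% of all tested genes did. Their median was 0.01, and with an interval apart from 0 there were 14 higher (20.9%) and 6 lower (8.96%), against 9.91% and 9.16% of all tested genes. In the active zone, Erc2 had 77.7 and 116 CPM (0.58, interval 0.49 to 0.68), the scaffold Bsn differed by 0.24, Rimbp2 by 0.21, and the adhesion proteins Nrxn2 and Nrxn3 by 0.32 and 0.23, while Ppfia1 had -0.21. Among factors that keep SNAREs in use, Sncb had 178 and 211 CPM (0.24) and Sncg 42.5 and 89.7 CPM (1.08, interval 0.95 to 1.20). Nsf and Napa, the ATPase and adaptor that take SNARE complexes apart, both had -0.04. Of the priming factors and other sensors, Cadps2, which loads and primes dense-core vesicles, had 81.8 and 142 CPM (0.79, interval 0.70 to 0.89), whereas Doc2a (-0.21) and Esyt2 (-0.26) were lower. Synpr was higher (0.33) and Sypl lower (-0.32) among vesicle membrane proteins. In vesicle endocytosis 1 of 19 genes passed, Cltb with 0.23.

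Genes that load transmitter into vesicles had the widest range. Slc18a2, the monoamine transporter of DA neurons and 1 of the DA neuron markers, had 174 and 501 CPM (1.53, interval 1.47 to 1.59). Slc32a1, the transporter for GABA, differed by 0.29 (interval 0.20 to 0.37) and Slc17a6, the main glutamate transporter below the cortex, by -0.23 (interval -0.28 to -0.18). Slc17a7, the glutamate transporter of cortex and parts of the thalamus, had 13.5 and 2.36 CPM (-2.51, interval -2.99 to -2.07). Slc18a3, the acetylcholine transporter, had 1 and 27 counts, a log2 ratio of 3.94 with an interval from 1.84 to 9.80. The release genes lay from -0.50 to 0.84.

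Beside 2 other families of neuronal genes, the release genes had the higher median and the narrower range. Of 26 glutamate receptor subunits tested, 3 were higher and 10 lower past log2 0.2, with a median of -0.15 and values from -1.24 to 0.59. Of 75 potassium channel genes, 14 were higher and 21 lower, with a median of -0.05 and values from -2.83 to 0.96. Lower by more than log2 0.2 were thus 38.5% and 28.0% of these families, 11.3% of the release genes and 16.6% of all tested genes. Higher by as much were 11.5% and 18.7% of the families, 19.7% of the release genes and 17.9% of all tested genes. When the interval also had to exclude 0, 3.85% of the glutamate receptor subunits and 14.7% of the potassium channel genes were higher. That compares with 14.1% of the release genes and 9.91% of all tested genes. Lower in this way were 34.6% and 14.7% of the families, 7.04% of the release genes and 9.16% of all tested genes. With 1 library per group, these differences between families were not tested.

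**Figure D4:**
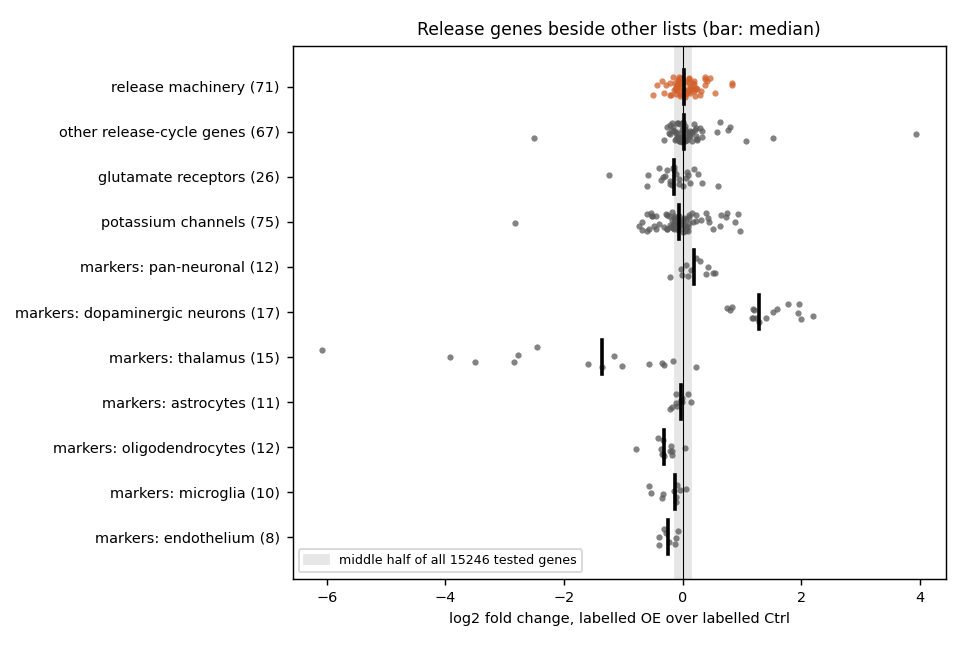
Log2 fold change, OE label over Ctrl label, of each tested gene in the release machinery (orange) and in other lists (grey), with black bars at the medians, the number of genes in brackets and a grey band for the middle 50% of all 15246 tested genes. The release genes gather within and around that band with a median of 0.02, whereas markers of DA neurons and of the thalamus lie far to the right and to the left, with medians of 1.29 and -1.36 (the leftmost point, Gbx2, has 0 counts under the OE label, so its place depends on the pseudocount).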

How the data were processed

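Ventral midbrain RNA was measured in 2 libraries, 1 per group. The sequencing company made stranded libraries of polyadenylated RNA, read both ends over 50 bases and processed the reads in house. Expected counts per gene from RSEM, unscaled, were deposited by the authors, and per the labels the genome build was mm10. Aligner, versions and gene annotation are not given in the sources used here. Columns were matched to samples by the library number. Counts were scaled with TMM factors of 1.01 and 0.995 (edgeR 4.0.16, R 4.3.3) and are given per 1000000 counts (CPM). Before the log2 ratio was taken, 0.5 was added to each scaled count as a pseudocount, and genes averaging under 10 counts were left out. Intervals follow Clopper and Pearson (exact) for how 2 rounded counts divide, or Wald intervals for ratios of paralogs (scipy 1.17.1). They cover counting error only, and no test across mice or p-value was possible. In simulated Poisson counts for labelled OE over labelled Ctrl, with a log2 change of 1 in 200 of 15254 tested genes, 97.0% of these had an interval above 0, and 95.7% of intervals of unchanged genes held 0. Poisson counts follow the model behind the intervals, so this checks the calculation only and holds no spread between mice. The simulation used total counts for scaling and no log2 0.2 threshold. Its change of log2 1 was larger than that of any tested release gene (at most 0.84), so the 97.0% does not carry over to smaller differences. Lengths and exons came from GENCODE M21, matched for 75 of the 77 genes; Vamp7 and Stxbp3b had none. Promoters came from RefSeq.

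The members and lists were chosen with earlier results of these data known. Named were fixed central genes, genes past log2 0.2 whose interval excluded 0, the outer values of each role group, the paralog pairs and the genes under the minimum, and of the other vesicle lists the genes past log2 0.2 apart from 0. Snap47, Syt3 to Syt6, Syt11 to Syt16, Stxbp2 to Stxbp6, Rims2 to Rims4, Nsf and Napa were also named after their values were seen. Alternatives were 3 other scalings (DESeq2 1.42.0 for 1), centring on pan-neuronal markers, another pseudocount, other minimums and another threshold. A few genes are counted in the lists but not reported here by name.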

Additional observations from a re-analysis of the deposited data

How the results depend on the processing

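No paired analysis was possible because only 1 library stands for a group, and for the same reason no library could be left out. Upper-quartile, total-count or DESeq2 scaling, a pseudocount of 5, and minimums of 1 count in either library or a mean of 100 counts left between 10 and 16 release genes higher and between 6 and 10 lower past log2 0.2, with medians from 0.0048 to 0.04, the last without the SNAREs of other membranes. Under these scalings and this pseudocount, all 71 values stayed within their own counting intervals. The share of all tested genes past log2 0.2 also moved with the setting. Among the settings above it was lowest at a mean of 100 counts, with 12.98% higher and 11.7% lower. It was highest at 1 count in either library, with 23.5% higher and 23.3% lower. The counts of release genes are to be read against these shares.

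Centring on the pan-neuronal markers shifts every value by 0.19 and changes the picture. The median of the release genes became -0.16, as that of all genes became -0.18. Higher past log2 0.2 were then 5 release genes and lower 32, against 8.03% and 45.7% of all tested genes. With an interval apart from 0 as well there were 4 and 28, against 3.12% and 34.6% of all tested genes. Of the 14 genes higher before, Cplx1, Rab3c, Sv2c, Syt14 and Syt17 remained past the threshold, and all 8 lower genes did. Under the main scaling, without centring, a threshold of log2 0.5 left 3 genes higher (Sv2c, Syt17 and Syt14) and 0 lower. Of all tested genes 5.59% and 5.03% were. With centring, Syt9 (-0.63), Syt10 (-0.68), Syn2 (-0.53) and Stx1a (-0.51) were past log2 0.5 on the lower side. Sv2c and Syt17 (both 0.65) were past it on the higher side, and Syt14 (0.35) was not. Depth limits the genes under 100 counts: 5 of the 6 had values past log2 0.2 and none an interval apart from 0.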
